A study of Mus musculus with 3 samples.

Results

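The Wnt signalling genes described here are 58 of the 22609 gene symbols measured by RNA sequencing in 3 epithelial populations of C57BL/6 mice. They were taken by symbol: every Wnt, Frizzled (Fzd), Dickkopf (Dkk), secreted Frizzled-related (Sfrp) and R-spondin (Rspo) gene in the table, Axin1 and Axin2, the Tcf7 genes and Lef1, Lrp5 and Lrp6, the 3 Dishevelled (Dvl) genes, and Wif1, Frzb, Porcn, Wls, Kremen1 and Kremen2. The thymic cortex gave cTEC, the epithelial cells on which immature thymocytes undergo positive selection. The thymic medulla gave mTEC, epithelial cells that display genes of other tissues and so help to remove self-reactive thymocytes. Both were sorted from thymi of 14 mice at 7 days of age. The skinEC, EpCAM-positive keratinocytes of the epidermis of trunk and back, came from 7 newborn mice and served as an epithelium from outside the thymus. Each population gave 1 library from several mice, with no genetic change or treatment, so no difference below has a replicate check and no p-value is given. Age differed together with tissue, so age and tissue cannot be told apart in comparisons with skinEC.

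Wnt ligands are secreted lipid-modified proteins. The acyltransferase Porcn attaches the lipid, the carrier Wls takes the ligand to the cell surface, and a Frizzled receptor binds it together with the co-receptors Lrp5 or Lrp6. Dishevelled then stops a complex built on Axin from destroying beta-catenin, which enters the nucleus and acts with the TCF/LEF factors. Secreted proteins tune the signal: Sfrp, Frzb and Wif1 bind the ligands, Dickkopf proteins bind the Lrp co-receptors with help from Kremen, and R-spondins strengthen it by keeping Frizzled at the surface. Wnt signals are known to support the early thymic epithelium, where Wnt4 has been linked to the transcription factor Foxn1, and to drive hair follicle formation and stem cell renewal in the skin.

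Expression is given in RPKM, which scales the reads of a gene by its length and by the mapped reads of the library, so levels of different genes in a library can be set side by side. The steps of low values put the depth at about 56500000 reads for cTEC, 55500000 for mTEC and 55600000 for skinEC, the last from 11 genes only. At that depth a gene of 1 kb with 3 reads would show 0.0531, 0.0541 and 0.054 RPKM, so values of this order rest on a few reads. The sorting was checked by known markers of each population. Psmb11, a cortical proteasome subunit gene, was at 261 RPKM in cTEC, 1.66 in mTEC and 0.0632 in skinEC. Aire, the medullary regulator of tissue-restricted antigens, was at 1.20, 1129 and 0.148 RPKM, and the keratin gene Krt14 at 17.7, 229 and 10673 RPKM in the same order. Enpep, which encodes the cortical sorting label Ly51, was at 45.0, 11.6 and 0.0553 RPKM. Ptprc, which encodes CD45, the label excluded in the thymic sort, was at 1.07 RPKM in cTEC, 8.01 in mTEC and 0.0853 in skinEC. Genes of other cells were present as well. The 10 myeloid and dendritic markers summed to 6.69 RPKM in cTEC, 831 in mTEC and 5.86 in skinEC, with Lyz2 and Laptm5 at 283 and 460 RPKM in mTEC. Endothelial markers summed to 24.2, 49.4 and 0.760 RPKM and markers of melanocytes and Schwann cells to 6.58, 14.6 and 3.69 RPKM. The endothelial markers were divided: Plvap, Vwf and Tek led the mTEC sum, while Pecam1, Cdh5, Kdr, Tie1 and Emcn had larger values in cTEC than in mTEC.

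A gene was called higher or lower when its log2 ratio of (RPKM + 1) reached 2 in size, which is 4-fold, among genes that reached 1 RPKM in any library, and other ratios are called within 4-fold. Of the 58 Wnt genes 57 reached that level, and the exception was the ligand gene Wnt8a (listed at 0 in cTEC, at 0.866 RPKM in mTEC and at 0.672 in skinEC). In cTEC over mTEC, 1 of the 57 was higher, beside 2.69% of all 16869 genes, and 10 were lower, which is 17.5% beside 15.2% of all genes. In cTEC over skinEC, 0 were higher, beside 6.3% of all genes, and 10 were lower, which is 17.5% beside 5.82%. In mTEC over skinEC, 4 were higher, which is 7.02% beside 16.8%, and 11 were lower, which is 19.3% beside 4.2%. The gap among genes higher in mTEC depended on the settings: it was 22.8% beside 25.6% after rescaling to TPM and 31.6% beside 29.8% with 0.1 RPKM added. Rescaling to TPM raises all values while 1 is still added, so ratios of low genes also grow. The share of genes higher in cTEC than in skinEC moved as well, to 5.26% beside 9.73% on the TPM scale. The share lower in cTEC than in mTEC was near that of all genes by the rule used here. It lay farther above it in some settings, at 40.4% beside 27.0% with 0.1 RPKM added and 45.6% beside 30.8% by a 2-fold rule. The gap was smaller in others, at 18.9% beside 16.8% with a filter at 5 RPKM and 26.3% beside 21.4% on the TPM scale. The shares lower in each thymic population than in skinEC lay above that of all genes. The 2 comparisons with skinEC share that library.

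**Figure D1:**
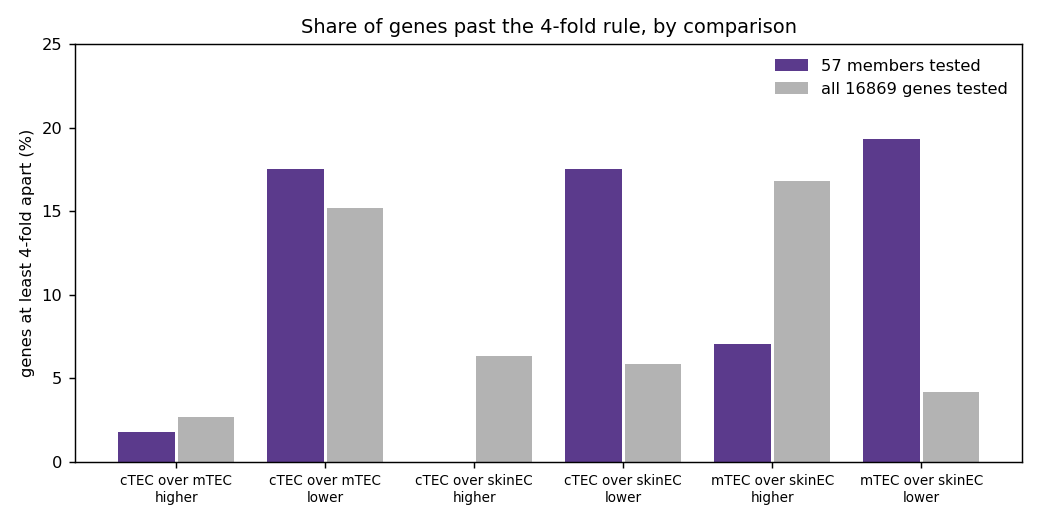
Percent of genes at least 4-fold higher or lower in each comparison of 2 libraries, for the 57 Wnt genes (dark bars) and for all 16869 genes tested (grey bars). The bars of genes lower in a thymic population than in skinEC stand at 17.5% against 5.82% for cTEC and at 19.3% against 4.2% for mTEC.

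The median log2 ratio of the 57 genes was -0.61 in cTEC over mTEC, beside -0.08 over all genes, -0.37 in cTEC over skinEC, beside 0.00, and -0.03 in mTEC over skinEC, beside 0.16. On the TPM scale, where each library is rescaled to the same sum, the all-gene median of mTEC over skinEC moved to 0.47 and that of cTEC over skinEC to 0.20, and the median of the Wnt genes in mTEC over skinEC turned to 0.29. Counts at a fixed level showed the breadth of the medullary library. At 1 RPKM or more there were 29 of the 58 genes in cTEC, 53 in mTEC and 37 in skinEC, beside 55.7%, 72.4% and 53.5% of all symbols. At 10 RPKM or more there were 19, 19 and 27, beside 34.2%, 36.5% and 33.9%.

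The ligand genes differed most in which member was abundant. Wnt4 (Entrez 22417) was at 152 RPKM in cTEC, 17.9 in mTEC and 147 in skinEC. It was thus high in cTEC and skinEC alike (log2 ratio 0.04) and 8.47-fold higher in cTEC than in mTEC (log2 ratio 3.01), the only Wnt gene called higher in that comparison. By level it ranked 412 among all genes in cTEC, 5506 in mTEC and 571 in skinEC. Wnt4 made up 94.3% of the summed RPKM of the 19 ligands in cTEC, 15.6% in mTEC and 32.2% in skinEC. Without it, the other 18 ligands summed to 9.19 RPKM in cTEC, 96.9 in mTEC and 310 in skinEC, and 2 of them, Wnt7b and Wnt9a, reached 1 RPKM in cTEC. In bulk libraries such as these, fewer cells that use a gene and less RNA per cell cannot be told apart.

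The skin carried a broad set of ligands that cTEC held at low level. Wnt10a (Entrez 22409), known for its part in hair, teeth and sweat glands, was at 0.234 RPKM in cTEC, 27.6 in mTEC and 73.7 in skinEC. Wnt6 was at 0.572 RPKM in cTEC, 6.80 in mTEC and 66.0 in skinEC. Wnt7b was at 1.73, 4.84 and 63.2 RPKM in the same order. All 3 were lowest in cTEC and highest in skinEC, and each was at least 4-fold lower in cTEC than in skinEC, with log2 ratios of -5.92, -5.41 and -4.55. Wnt3, a classic activator of beta-catenin, was at 0.482 RPKM in cTEC, 2.42 in mTEC and 32.1 in skinEC. Wnt16, best known from bone, was at 0.0848, 0.227 and 25.5 RPKM. Wnt16 was thus the ligand nearest to a skin-restricted level, and its log2 ratios to skinEC were -4.61 for cTEC and -4.43 for mTEC.

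Other ligands were highest in skinEC at a lower level. Wnt3a was at 0.951 RPKM in cTEC, 0.885 in mTEC and 7.37 in skinEC, and was lower in both thymic populations than in skinEC. Wnt7a was at 0.0445, 1.35 and 6.67 RPKM and was lower in cTEC alone. Wnt5b was at 0.395, 1.004 and 4.57 RPKM, and its log2 ratio of -2.00 in cTEC over skinEC came just short of the rule before rounding. In all, 8 of the 18 ligands at 1 RPKM or more had cTEC lowest, mTEC between and skinEC highest (44.4%, beside 12.9% of all genes): Wnt3, Wnt5b, Wnt6, Wnt7a, Wnt7b, Wnt10a, Wnt10b and Wnt16. Of 10 hair follicle markers 6 had the same order, while Krt71, Krt25 and Padi3 were highest in mTEC and Edar was lowest there (12.5 RPKM in cTEC, 3.86 in mTEC and 18.3 in skinEC). Their sum was 12.8 RPKM in cTEC, nearly all of it Edar, 45.3 in mTEC, led by Krt71 (24.1 RPKM), and 115 in skinEC, led by Lhx2 (57.3 RPKM). Their part in the ligand levels was not tested.

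In mTEC 2 ligands led. Wnt10a held 0.146% of the ligand sum in cTEC and 24.0% in mTEC, and Wnt10b 0.261% and 22.8%. Wnt10b (Entrez 22410) was at 0.420 RPKM in cTEC, 26.2 in mTEC and 26.8 in skinEC. It thus stood at the skin level in mTEC (log2 ratio -0.03) and far lower in cTEC than in both (-4.26 and -4.29). Wnt10a was also lower in cTEC than in mTEC (-4.53), while mTEC and skinEC stayed within 4-fold of each other (-1.39). Wnt6 lay between them, lower in cTEC than in mTEC (-2.31) and lower in mTEC than in skinEC (-3.10).

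A further set of ligands was highest in mTEC, at low level: 7 of the 18 tested, beside 40.1% of all genes tested. All of this set but Wnt5a passed the filter at 1 RPKM through mTEC alone, so that order came with the filter. Wnt11, known from kidney and heart formation, was at 0.0444 RPKM in cTEC, 6.03 in mTEC and 0.841 in skinEC. Wnt8b, best known from the developing forebrain, was at 0.0105, 4.63 and 0.0106 RPKM. Wnt2b was at 0.163, 4.61 and 0.566 RPKM. These 3 were lower in cTEC than in mTEC (log2 ratios -2.75, -2.48 and -2.27), and Wnt8b was the 1 ligand higher in mTEC than in skinEC (2.48). Wnt2 was at 0.0167 RPKM in cTEC, 1.86 in mTEC and listed at 0 in skinEC, and Wnt1 was listed at 0 in cTEC, at 1.102 RPKM in mTEC and at 0.0151 RPKM in skinEC. Wnt9b was at 0.414, 1.95 and 0.162 RPKM and Wnt5a, the main ligand of beta-catenin-independent signalling, at 0.848, 2.34 and 1.797 RPKM. None of these 4 passed the 4-fold rule in any comparison. Wnt9a was the other ligand highest in cTEC, at 2.77 RPKM, against 2.24 RPKM in mTEC and 0.162 in skinEC. It passed the rule in no comparison with 1 RPKM added (log2 ratios to skinEC of 1.70 for cTEC and 1.48 for mTEC), but did with 0.1 RPKM added (3.46 and 3.16).

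**Figure D2:**
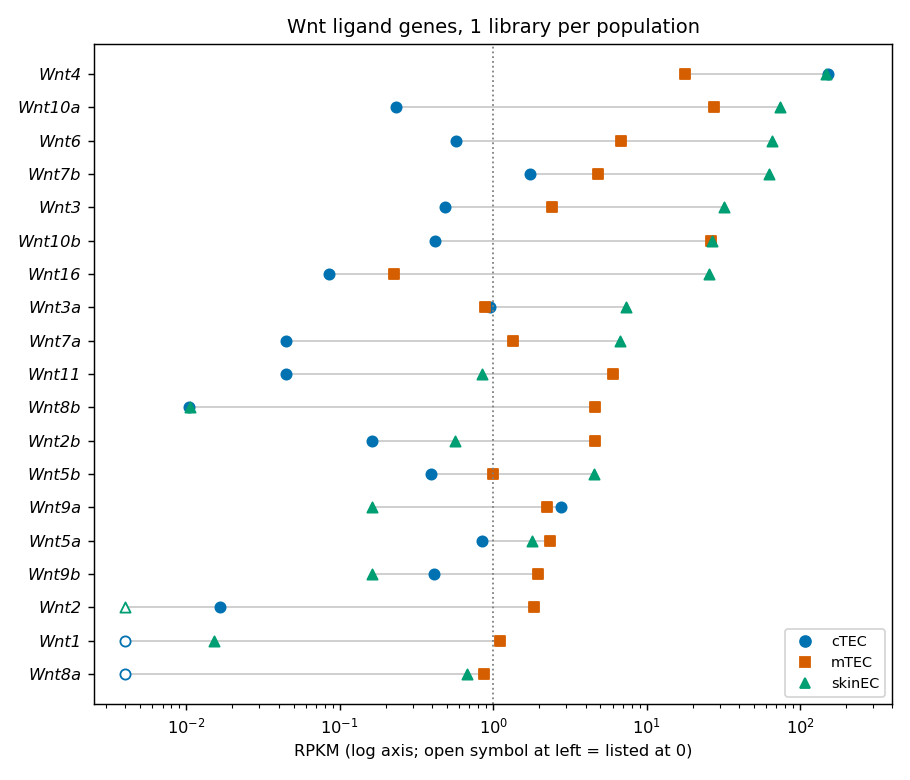
Level of the 19 Wnt ligand genes in the cTEC (circles), mTEC (squares) and skinEC (triangles) libraries, in RPKM on a log axis, ordered by their highest value. Wnt4 is the only ligand above 10 RPKM in cTEC, at 152 RPKM, while 3 ligands pass 10 RPKM in mTEC and 7 in skinEC.

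In the mouse genome 8 of these ligands lie as neighbours in 4 pairs, by the gene order of RefSeq on the GRCm38.p6 assembly. Wnt6 and Wnt10a, next to each other, shared the order of the libraries given above. The other pairs did not. Beside Wnt3 with its 32.1 RPKM in skinEC, Wnt9b was at 0.162 RPKM there, and beside Wnt3a with 7.37 RPKM, Wnt9a was at 0.162 RPKM. Beside Wnt10b, Wnt1 was at 1.102 RPKM in mTEC, where Wnt10b had 26.2 RPKM.

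Promoter sequence from RefSeq (GRCm38.p6), the 250 bases before the annotated start, was at hand for 39 of the 58 genes in 47 windows. Windows are shown for Wnt4, the leading cTEC ligand, on the plus strand at chr4:137277385-137277634, for the skin ligands Wnt6 (chr1:74771642-74771891, plus strand) and Wnt3 (chr11:103773925-103774174, plus strand), and for the antagonist gene Dkk1 (chr19:30549497-30549746, minus strand), which is described with the Dickkopf genes. All are written 5′ to 3′ in lower case. Capitals mark matches to 4 short forms of the TCF/LEF site, the canonical CTTTGAT together with CTTTGTT as well as CTTTGAA or else CTTTGTA, searched on both strands.
Wnt4: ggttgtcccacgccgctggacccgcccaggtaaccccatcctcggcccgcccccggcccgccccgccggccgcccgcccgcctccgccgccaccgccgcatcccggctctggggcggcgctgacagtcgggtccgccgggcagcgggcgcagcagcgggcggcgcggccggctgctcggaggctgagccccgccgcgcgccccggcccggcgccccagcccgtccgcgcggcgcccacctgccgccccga
Wnt6: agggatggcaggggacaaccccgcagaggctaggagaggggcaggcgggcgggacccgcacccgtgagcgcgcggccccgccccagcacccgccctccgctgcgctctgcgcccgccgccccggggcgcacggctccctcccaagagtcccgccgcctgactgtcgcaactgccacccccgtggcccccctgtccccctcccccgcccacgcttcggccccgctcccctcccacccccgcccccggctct
Wnt3: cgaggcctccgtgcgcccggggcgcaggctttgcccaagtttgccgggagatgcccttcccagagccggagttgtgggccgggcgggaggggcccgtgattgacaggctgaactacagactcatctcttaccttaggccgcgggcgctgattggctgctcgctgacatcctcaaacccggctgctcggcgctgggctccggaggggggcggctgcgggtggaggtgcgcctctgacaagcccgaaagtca
Dkk1: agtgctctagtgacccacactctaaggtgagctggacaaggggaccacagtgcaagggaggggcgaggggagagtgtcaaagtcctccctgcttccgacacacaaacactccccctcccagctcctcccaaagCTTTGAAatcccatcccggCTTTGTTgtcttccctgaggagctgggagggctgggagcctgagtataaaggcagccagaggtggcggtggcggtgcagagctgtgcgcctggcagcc
The Wnt4 window had a GC content of 85.2% and a ratio of observed to expected CpG of 1. The Wnt6 window had 79.6% and 0.761, the Wnt3 window 68.0% and 0.768, and the Dkk1 window 60.8% and 0.26. Dkk1 held 2 matches, starting at positions -117 and -98 from the start site, and the windows of Wnt4, Wnt6 and Wnt3 held none. The Dkk1 window was the only one of the 47 with 2 matches, so this contrast comes with the choice of windows shown. Single matches lay in windows of Fzd7, Lef1, Tcf7l2, Wnt5b and Wnt11. Over the 47 windows 6 had a match (12.8%), beside 14.8% of all 32851 promoter windows of the same length, so the Wnt genes held these letters about as often as promoters in general. Their median GC content was 66.8%, beside 52.4%, and their median CpG ratio 0.751, beside 0.373.

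**Figure D3:**
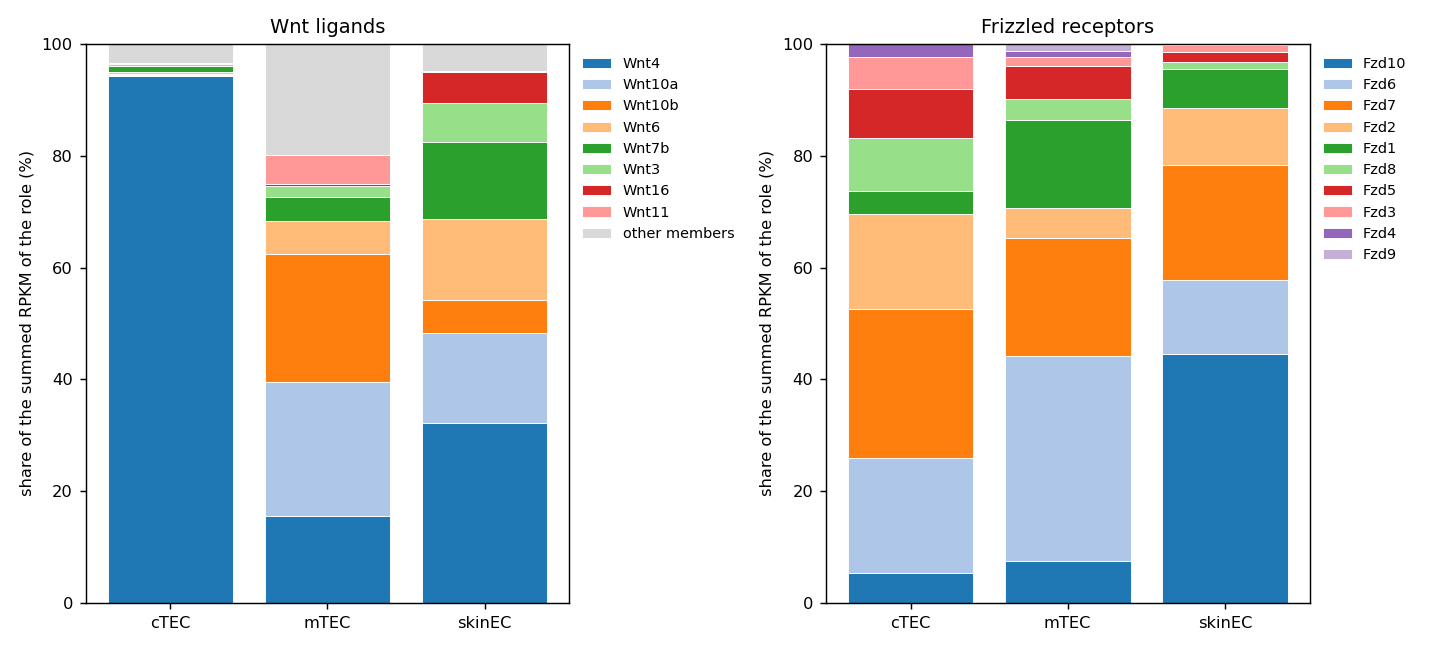
Share of each gene in the summed RPKM of the Wnt ligands (left) and of the Frizzled receptors (right), in percent, for the cTEC, mTEC and skinEC libraries. Wnt4 fills 94.3% of the cTEC ligand bar, 15.6% of the mTEC bar and 32.2% of the skinEC bar, and Fzd10 fills 5.40%, 7.46% and 44.6% of the receptor bars.

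The means to secrete Wnt proteins were expressed in every population. Wls was at 115 RPKM in cTEC, 58.1 in mTEC and 191 in skinEC, the highest of the 58 genes in the skin library. Porcn was at 2.33, 4.08 and 6.74 RPKM. Neither passed the 4-fold rule in any comparison.

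The leading receptor differed between the populations. In cTEC the leading Frizzled was Fzd7 (26.7% of the receptor sum), in mTEC Fzd6 (36.8%) and in skinEC Fzd10 (44.6%). Fzd7 was at 32.5 RPKM in cTEC, 18.3 in mTEC and 50.5 in skinEC, and Fzd6, which takes part in planar cell polarity and hair orientation, was at 25.1, 31.97 and 32.6 RPKM. Both stayed within 4-fold in every comparison. Fzd10 (Entrez 93897) did not: it was at 6.59 RPKM in cTEC, 6.49 in mTEC and 110 in skinEC, with log2 ratios of -3.87 and -3.89 for the thymic populations over skinEC. Fzd2 was at 20.6 RPKM in cTEC, 4.64 in mTEC and 25.3 in skinEC, and was lower in mTEC than in skinEC (-2.22). Its log2 ratio in cTEC over mTEC, 1.94, came close to the rule.

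No Frizzled was called higher or lower in cTEC over mTEC. Of the 10 receptors 5 had their highest level in skinEC, beside 33.9% of all genes tested. In cTEC 4 had theirs, beside 26.1%, and in mTEC 1, beside 40.1%. Among those highest in cTEC were Fzd8 (11.7 RPKM in cTEC, 3.25 in mTEC, 3.10 in skinEC), Fzd5 (10.6, 5.27 and 4.32 RPKM) and Fzd3 (6.96, 1.31 and 3.16 RPKM). The fourth, Fzd4, was at 2.84, 0.998 and 0.311 RPKM. Fzd1 was at 4.99, 13.6 and 17.0 RPKM. Fzd9 was low everywhere, at 0.00837 RPKM in cTEC, 1.06 in mTEC and 0.119 in skinEC. The co-receptors changed places in rank. Lrp6 was at 38.9 RPKM in cTEC, 19.0 in mTEC and 19.5 in skinEC, and Lrp5 was at 18.8, 22.5 and 74.8 RPKM. Lrp6 held 67.4% of the co-receptor sum in cTEC, 45.7% in mTEC and 20.7% in skinEC, while each gene stayed within 4-fold in all 3 comparisons.

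The R-spondin genes were low and highest in mTEC in 4 of 4 cases, beside 40.1% of all genes tested. All 4 passed the filter at 1 RPKM through mTEC alone, so this order came with the filter. Rspo4, needed for nails in humans, was at 0.0447 RPKM in cTEC, 2.69 in mTEC and listed at 0 in skinEC. Rspo3 was at 0.0295, 2.19 and 0.157 RPKM, Rspo1 at 0.819, 2.01 and 0.215 RPKM, and Rspo2 was listed at 0 in cTEC and skinEC and at 1.03 RPKM in mTEC. None passed the 4-fold rule, which adds 1 RPKM to both sides and so weighs down ratios at this level. Their receptors were present. Lgr4 was at 35.2 RPKM in cTEC, 17.7 in mTEC and 53.8 in skinEC, while Lgr6, a marker of hair follicle and epidermal stem cells, was at 0.0390, 1.70 and 152 RPKM and Lgr5 at 0.165, 0.754 and 8.36 RPKM. Of the 5 R-spondin receptor and turnover genes, 0 were called in cTEC over mTEC. In cTEC 2 were lower than in skinEC (Lgr6 and Lgr5), beside 5.82% of all genes. In mTEC 3 were lower than in skinEC (these and Znrf3, at 2.32 against 15.2 RPKM), beside 4.2% of all genes.

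Among the antagonists that bind ligands, Sfrp1 led in every library. It was at 10.9 RPKM in cTEC, 31.4 in mTEC and 9.35 in skinEC, within 4-fold, and made up 87.3%, 65.4% and 74.6% of the sum of its role. Sfrp5 (Entrez 54612) was at 0.177 RPKM in cTEC, 10.5 in mTEC and 0.349 in skinEC. Sfrp5 was thus the 1 gene of this role past the rule, lower in cTEC than in mTEC (log2 ratio -3.29) and higher in mTEC than in skinEC (3.09). Sfrp2 was at 0.0883, 2.55 and 0.742 RPKM, and Sfrp4 at 1.33 RPKM in cTEC, 1.95 in mTEC and listed at 0 in skinEC. Frzb was listed at 0 in cTEC and skinEC and was at 1.14 RPKM in mTEC. Of the 6 genes of this role 5 were highest in mTEC, beside 40.1% of all genes tested. Sfrp2, Sfrp5 and Frzb passed the filter at 1 RPKM through mTEC alone, so their order came with the filter. The exception was Wif1, listed at 0 in cTEC and at 0.442 RPKM in mTEC and 2.09 in skinEC.

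The Dickkopf genes were divided between mTEC and skin. Dkk2 was at 0.1001 RPKM in cTEC, 7.67 in mTEC and 0.00966 in skinEC. Dkk1 (Entrez 13380), whose promoter window is shown above, was at 0.00790 RPKM in cTEC, 4.35 in mTEC and listed at 0 in skinEC. Both were lower in cTEC than in mTEC (log2 ratios -2.98 and -2.41) and higher in mTEC than in skinEC (3.10 and 2.42). Dkk3, a divergent member of the family, had the opposite order, at 0.195 RPKM in cTEC, 2.36 in mTEC and 19.7 in skinEC, and was lower in both thymic populations than in skinEC (-4.11 and -2.62). Dkk4 was listed at 0 in cTEC and was at 1.39 RPKM in mTEC and 0.245 in skinEC. Dkk1, Dkk2 and Dkk4 passed the filter at 1 RPKM through mTEC alone, so that they were highest there came with the filter. In cTEC, then, all 4 Dickkopf genes lay below 0.2 RPKM. The Kremen genes were not low there: Kremen1 was at 38.1 RPKM in cTEC, 16.2 in mTEC and 37.4 in skinEC, and Kremen2 at 22.2, 19.7 and 37.5 RPKM, all within 4-fold.

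**Figure D4:**
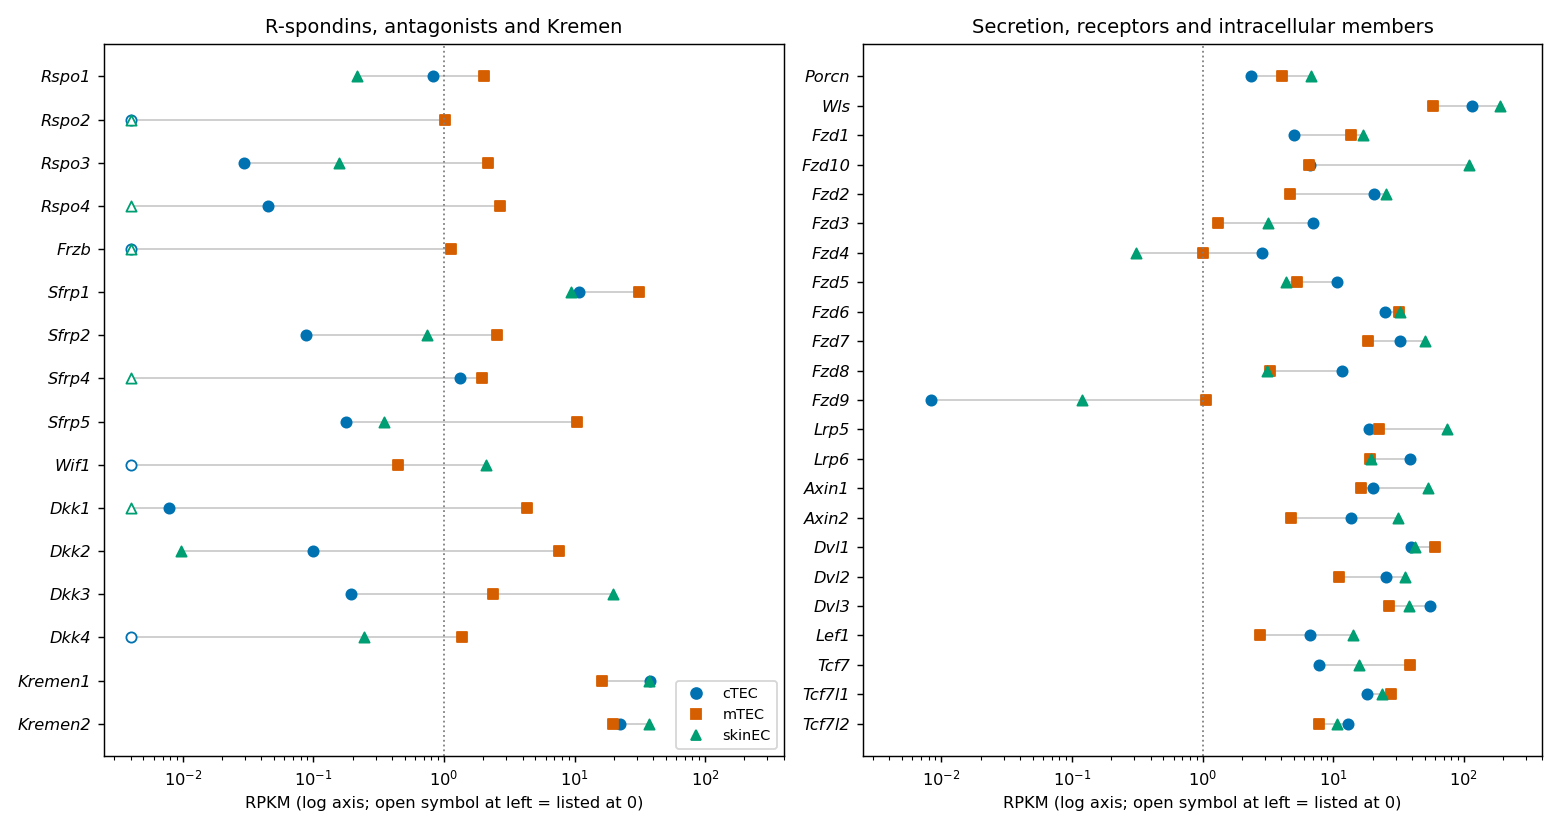
Level of the other 39 genes in the cTEC (circles), mTEC (squares) and skinEC (triangles) libraries, in RPKM on a log axis, with R-spondins, secreted antagonists and Kremen genes on the left and secretion, receptor and intracellular genes on the right. Squares lie farthest right for all 4 R-spondins and for Sfrp5, Dkk1 and Dkk2, and the right panel is mostly above 1 RPKM in every library.

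In all, 17 of the 57 genes reached 1 RPKM in mTEC alone (29.8%, beside 19.7% of all genes tested). They were 6 ligands, the 4 R-spondins, Frzb, Sfrp2, Sfrp5, Dkk1, Dkk2, Dkk4 and Fzd9. All but Fzd9 encode secreted proteins, and Sfrp5 alone among them passed 10 RPKM. These 17 genes passed the filter at 1 RPKM through mTEC alone, so that they were highest there came with the filter. Among all 57 genes 23 were highest in mTEC, beside 40.1% of all genes tested. Markers of myeloid cells were highest in mTEC, as given above, and fibroblast markers were divided. Of these, 2 were lower in cTEC than in mTEC, Pdgfrb (1.29 RPKM in cTEC, 12.8 in mTEC and 0.0198 in skinEC) and Col1a1 (3.61, 34.5 and 1.07 RPKM in that order), and 2 were higher, Twist2 (12.1, 0.110 and 0.0409 RPKM) and Fbln1 (40.7, 9.40 and 94.5 RPKM). The 10 fibroblast markers summed to 103 RPKM in cTEC, 129 in mTEC and 471 in skinEC, of which Postn gave 342 RPKM in skinEC, and Pdgfra stayed below 1 RPKM in all 3. The part of these cells in the levels of secreted Wnt genes was not tested.

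Inside the cell the pathway was expressed throughout. The 5 Dishevelled and Axin genes ranged from 13.8 to 54.9 RPKM in cTEC, from 4.74 to 60.6 RPKM in mTEC and from 31.4 to 53.1 RPKM in skinEC. Axin2 (Entrez 12006), a feedback inhibitor that beta-catenin itself induces and a standard readout of the pathway, was at 13.8 RPKM in cTEC, 4.74 in mTEC and 31.4 in skinEC. It was lower in mTEC than in skinEC (log2 ratio -2.50, 6.62-fold higher in skinEC by RPKM) and lay within 4-fold in the other comparisons (1.37 and -1.13). Axin1, the partner of Axin2 that is not known as a target, was at 20.2, 16.3 and 53.1 RPKM. Dvl1 was at 39.7 RPKM in cTEC, 60.6 in mTEC and 42.4 in skinEC, Dvl2 at 25.5, 11.2 and 35.3 RPKM, and Dvl3 at 54.9, 26.5 and 38.2 RPKM. Dvl3 led in cTEC, Dvl1 in mTEC and Axin1 in skinEC.

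The TCF/LEF genes split by population. Lef1, itself a known target of the pathway, followed Axin2 in order, at 6.66 RPKM in cTEC, 2.73 in mTEC and 14.1 in skinEC, and was lower in mTEC than in skinEC (-2.02). That call rested on the scale, since the ratio was -1.87 after rescaling to TPM. Tcf7 (Entrez 21414), which encodes TCF1 and is abundant in thymocytes, went the other way, at 7.85 RPKM in cTEC, 38.6 in mTEC and 15.7 in skinEC, and was lower in cTEC than in mTEC (-2.16). Thymocyte markers were present too. The 12 of them summed to 17.9 RPKM in cTEC, 35.6 in mTEC and 5.26 in skinEC. Cd4 was at 0.314 RPKM in cTEC, 8.13 in mTEC and 0.0174 in skinEC (log2 ratio -2.80 in cTEC over mTEC). It was the 1 marker of the 12 lower in cTEC than in mTEC as Tcf7 was. The other markers stayed within 4-fold in that comparison. Rag1 (1.49 RPKM in cTEC, 1.38 in mTEC) and Rag2 (1.15 and 0.723 RPKM) had larger values in cTEC. The part of thymocytes in the level of Tcf7 was not tested. Tcf7l1, which represses target genes in stem cells of the skin, was at 18.0, 27.8 and 23.5 RPKM and Tcf7l2 at 12.9, 7.72 and 10.6 RPKM, both within 4-fold.

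The rest of the pathway was read from lists of other genes. Of all genes tested, 2.69% were called higher and 15.2% lower in cTEC over mTEC. In cTEC over skinEC 6.3% were higher and 5.82% lower, and in mTEC over skinEC 16.8% and 4.2%. Of 10 genes of the complex that destroys beta-catenin, 0 passed the 4-fold rule in any comparison, with Gsk3b at 19.5 RPKM in cTEC, 15.8 in mTEC and 26.5 in skinEC. Ctnnb1, which encodes beta-catenin, was at 391, 228 and 548 RPKM. Among 13 nuclear cofactors, the corepressor gene Tle2 was the only call, lower in cTEC (0.662 RPKM) than in mTEC (9.72 RPKM) and skinEC (6.61 RPKM). Of 7 genes widely used as targets, 2 were lower in cTEC than in mTEC, 1 was lower in cTEC than in skinEC, 1 was higher in mTEC than in skinEC and 2 were lower (1 on the TPM scale, where Cd44 was at -1.97). The cyclin gene Ccnd1 was at 3.47 RPKM in cTEC, 19.6 in mTEC and 109 in skinEC. Nkd2, an inhibitor of Dishevelled, was at 1.02, 16.1 and 0.622 RPKM, and Cd44 at 42.9, 28.9 and 144 RPKM. These targets did not share 1 order across the libraries.

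Other genes of the pathway at the cell surface also differed between mTEC and skin. Of 6 other receptor and proteoglycan genes, 2 were higher in cTEC than in mTEC, beside 2.69% of all genes. Against skinEC, 1 was lower in cTEC, beside 5.82% of all genes, and 5 were lower in mTEC, beside 4.2%. The last counts rested on the scale, since rescaling to TPM left 0 and 3. Ptk7, a receptor of planar cell polarity, was at 99.3 RPKM in cTEC, 19.8 in mTEC and 142 in skinEC, and Ror1, a receptor for Wnt5a, at 14.0, 1.99 and 11.4 RPKM. Both were higher in cTEC than in mTEC and lower in mTEC than in skinEC, the call of Ror1 against skinEC (-2.05) being -1.95 on the TPM scale. Of 8 other secreted or membrane modulators, 1 was higher and 2 were lower in cTEC than in mTEC, beside 2.69% and 15.2% of all genes. In cTEC over skinEC 1 was higher and 3 were lower, beside 6.3% and 5.82%. In mTEC over skinEC 1 was higher and 4 were lower (2 lower on the TPM scale), beside 16.8% and 4.2%. Apcdd1, a membrane inhibitor of Wnt signalling mutated in a hereditary hair loss of humans, was at 8.86 RPKM in cTEC, 8.26 in mTEC and 432 in skinEC. Sostdc1, a secreted inhibitor of BMP and Wnt signalling, was at 0.424, 3.82 and 306 RPKM. Skin thus held the highest levels of several inhibitors next to its ligands. Sost, which encodes the bone inhibitor sclerostin, was listed at 0 in cTEC and skinEC and was at 4.54 RPKM in mTEC.

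In the planar polarity list of 15 genes, 2 were higher in cTEC in both of its comparisons. Of all genes, 2.69% were higher in cTEC than in mTEC and 6.3% higher in cTEC than in skinEC. Dact2 was at 304 RPKM in cTEC, 21.0 in mTEC and 5.09 in skinEC, and Dact1 at 28.7, 3.94 and 1.06 RPKM. Both encode proteins that bind Dishevelled, and cTEC held them at log2 ratios of 3.80 and 2.59 over mTEC and of 5.65 and 3.85 over skinEC. The level of Dact2 in cTEC was above that of every Wnt gene described here. The other calls of the list were Celsr2 and Prickle1, lower in cTEC than in skinEC, Celsr2 and Vangl1, lower in mTEC than in skinEC (Vangl1 at -1.80 on the TPM scale, short of the rule), and Daam2, higher in mTEC than in skinEC.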

How the data were processed

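The libraries were made from total RNA of sorted cells with an Illumina TruSeq kit, per the labels' protocols. The thymic sort excluded CD45, required EpCAM and split cTEC from mTEC by Ly51 and the lectin UEA1, and the skin sort required EpCAM and excluded CD11c. The deposited values are RPKM per gene, made by the authors per the file headers. CASAVA 1.8.2 and the build mm9 are named in the submitters' processing notes. Since the aligner, annotation and strandedness are not stated there, overlapping genes are uncertain. Of 22663 rows, 47 symbols stood on several, of which the row of largest total was used. The 58 genes each had 1 row.

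Computed here, with Python 3.11.15, numpy 2.4.6 and pandas 2.3.3, were log2 ratios with 1 RPKM added, a 4-fold rule over genes that reached 1 RPKM in any library, and shares within each role. The same code recovered known folds in simulated data, where all levels began at 1 RPKM or more. Drops were scored only from 10 RPKM or more, so drops from lower levels were not checked. Depth was the read number at which the values of low receptor genes came out whole within 0.02 reads on GENCODE M21 coding lengths (79.8% of 351 genes in mTEC, 69.2% of 39 in cTEC, 45.5% of 11 in skinEC). A depth near the double gave a like share, so depths are lower estimates. No counting interval is given, since reads need not be independent molecules. Members and gene lists were chosen with earlier results of these data known. Every member is named. From other lists, genes past the rule with the largest ratios, or at the highest level, are named. Others were chosen after their values were seen: Gsk3b, Ctnnb1, Pdgfra, Pdgfrb, Edar, Padi3, Lgr4, Rag1 and Rag2. So were the endothelial markers and the genes of the sorting check. Alternatives were another pseudocount, other filters, TPM scales, a 2-fold rule and summed rows.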

Additional observations from a re-analysis of the deposited data

How the results depend on the processing

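No paired analysis was possible because each population has 1 library, and for the same reason none could be left out. The Wnt genes called past the 4-fold rule, and the called genes of the pathway and marker lists (added after seeing the data), kept their direction under each alternative in which they were tested. Among the Wnt genes Lef1 in mTEC over skinEC lost its call (-1.87 on the TPM scale, and -1.98 when the top 50 genes per library were left out of the TPM sum). On the TPM scale 7 pathway genes lost one as well: Gpc4 in cTEC over skinEC (-1.82), and in mTEC over skinEC Cd44 (-1.97), Gpc3 (-1.86), Igfbp4 (-1.80), Ror1 (-1.95), Tpbg (-1.89) and Vangl1 (-1.80). Dropping the filter and summing rows of one symbol moved no result past its tolerance. Counts below are given as Wnt genes, then all genes, where both moved.

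With a pseudocount of 0.1 RPKM, cTEC over mTEC had 3 Wnt genes higher and 23 lower (4554 of all genes lower), cTEC over skinEC had 3 higher (1989 of all genes higher, 1490 lower), and mTEC over skinEC had 18 higher (5030 of all genes), since low genes pass more easily, and the Wnt medians were -1.20 in cTEC over mTEC and -0.70 in cTEC over skinEC. On the TPM scale the Wnt genes higher were 3, 3 and 13 in cTEC over mTEC, cTEC over skinEC and mTEC over skinEC, all genes higher were 1642 and 4321 in the comparisons of cTEC and of mTEC with skinEC, and the medians were -0.92, -0.24 and 0.29. With the top 50 genes left out, TPM gave 3, 4 and 13 Wnt genes higher, and 17 lower in cTEC over mTEC (3938 of all genes lower). Of all genes 1639 and 4600 were higher over skinEC, and the Wnt medians were -1.0 in cTEC over mTEC and 0.21 in mTEC over skinEC. On that scale 32 Wnt genes were at 10 or more in mTEC, a lower cut than 10 RPKM. A filter at 5 RPKM gave medians of -0.18, -0.73 and -1.16 and 2 Wnt genes higher in mTEC over skinEC. By a 2-fold rule, 9 Wnt genes were higher and 26 lower in cTEC over mTEC (1834 and 5203 of all genes), 5 and 17 in cTEC over skinEC (2596 and 2418), and 19 and 21 in mTEC over skinEC (5736 and 2812).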
